A study of Mus musculus with 8 samples.

Results

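The matrix metalloprotease (MMP) genes described here are Mmp2, Mmp3, Mmp9, Mmp10, Mmp11, Mmp12, Mmp13, Mmp14, Mmp15 and Mmp19, 10 rows taken by name from a table of 41730 gene rows. Their transcripts were counted by bulk RNA sequencing of 4T1 spheroids, made from a mouse mammary carcinoma cell line of BALB/c origin, which carried a lentivirus for a short hairpin RNA against Tlr7 (shTlr7, 4 libraries) or for a scrambled hairpin (shCtrl, 4 libraries). All spheroids of both groups were grown by the hanging drop method in DMEM with serum and came from transduced cells. The labels name 1 hairpin target per group and do not say whether a clone or a mixed population was used, or whether replicates were grown separately. The p-values therefore set the difference between the groups against the spread between these libraries, which may be technical.

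MMPs are zinc-dependent endopeptidases that are made as inactive proenzymes and become active when their propeptide is removed. Collagenases such as MMP13 cut fibrillar collagen, gelatinases (MMP2 and MMP9) cut denatured collagen and basement membrane collagen, stromelysins (MMP3 and MMP10) cut a broad range of matrix proteins and activate other MMPs, and membrane-type MMPs (MMP14 and MMP15) act at the cell surface. Tissue inhibitors of metalloproteases (TIMPs) block their active sites, and in mammary tumours MMPs are known for their part in invasion and for release of growth factors from the matrix.

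Library totals ranged from 18111623 to 93787535 counts in shTlr7 and from 19232129 to 51476683 counts in shCtrl. Tlr7, the targeted gene, had 0, 4, 3 and 0 counts in shTlr7 replicates 1 to 4, against 2, 3, 2 and 2 counts in shCtrl replicates 1 to 4, and a difference in its RNA was not detectable at this depth (pooled ratio 0.475, exact 95% interval 0.150 to 1.43, counting error only). The epithelial marker Epcam was at 780 ± 25.3 CPM in shTlr7 and 705 ± 53.9 CPM in shCtrl (CPM, counts scaled to a common library size; mean ± SD, n = 4 each), while the basal keratin gene Krt5 had 0 counts in all libraries. Of the 6 carcinoma cell markers, Epcam and Cdh1 were called higher (log2 fold changes 0.15 and 0.20) and Krt8, Krt18 and Krt14 lower (-0.37, -0.47 and -3.50). The groups overlapped for Epcam (edgeR adjusted p = 0.0297). Its call was lost without shCtrl replicate 1, 2 or 3 or shTlr7 replicate 1, 2 or 4 (edgeR adjusted p 0.0598 to 0.131). Krt14, a basal keratin gene, had 3.26 ± 1.08 CPM in shTlr7 and 36.2 ± 2.95 CPM in shCtrl (edgeR adjusted p = 1.91e-07). Among 8 macrophage markers, Adgre1 and Lyz2 had 0 counts in all libraries. The list summed to between 32.0 and 45.2 CPM in shTlr7 and between 24.5 and 29.3 CPM in shCtrl, mostly from Cd68, which other cell types also express. Summed neutrophil markers were between 0.907 and 1.17 CPM in shTlr7 and between 0.593 and 0.972 CPM in shCtrl, and summed fibroblast markers, mostly Pdgfra, between 44.6 and 49.9 CPM in shTlr7 and between 44.1 and 45.5 CPM in shCtrl. In the neutrophil and fibroblast lists, 1 marker each was called, both higher and at a low level. Fap, a fibroblast marker, had 2.01 ± 0.394 CPM in shTlr7 and 0.359 ± 0.117 CPM in shCtrl (log2 fold change 2.39, edgeR adjusted p = 2.82e-06), and Cxcr2, a neutrophil marker, had 0.701 ± 0.0902 CPM in shTlr7 and 0.267 ± 0.0601 CPM in shCtrl (1.44, edgeR adjusted p = 2.98e-04). The other tested markers, Pdgfra (log2 fold change 0.04), Col1a1 (-0.41) and S100a8 (-0.46), were not called (edgeR adjusted p = 0.504, 0.124 and 0.158). The part of marker changes in the results on metalloproteases was not tested. Endothelial and T cell markers stayed below 1 CPM in sum in every library. The library numbered 4 of shCtrl stood apart in immediate early genes such as Fos, and without both libraries numbered 4, a choice made after seeing the data, 4046 genes were called lower and 4213 higher of 13469 tested.

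The genes Mmp13, Mmp12, Mmp3 and Mmp10 lie on the same strand of chromosome 9 in a cluster that also holds Mmp1b, Mmp1a, Mmp8, Mmp27, Mmp20 and Mmp7. In RefSeq's annotation of GRCm38.p6, Mmp13 spans chr9:7272514-7283333, Mmp12 chr9:7344397-7360461, Mmp3 chr9:7445822-7455975 and Mmp10 chr9:7502342-7510242, all on the + strand. Promoter windows of 300 bases, from 250 bases before the gene start to 50 after it, were found in the RefSeq table of that build for 7 of the 10 genes. The windows of Mmp13 (chr9:7272264-7272563), Mmp3 (chr9:7445572-7445871) and Mmp10 (chr9:7502092-7502391) are shown because these genes are neighbours that differed in their log2 fold change between the groups, and that of Mmp14 (chr14:54431348-54431647, + strand) as a gene outside the cluster. They are written 5′ to 3′, and capitals mark the letters TGANTCA, the recognition sequence of the transcription factor AP-1, found on either strand.
Mmp13: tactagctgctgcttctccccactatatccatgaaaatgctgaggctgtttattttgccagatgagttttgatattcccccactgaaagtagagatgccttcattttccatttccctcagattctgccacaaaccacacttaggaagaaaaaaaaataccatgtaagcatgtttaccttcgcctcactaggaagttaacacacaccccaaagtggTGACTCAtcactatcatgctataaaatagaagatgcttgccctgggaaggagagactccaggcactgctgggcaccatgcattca
Mmp3: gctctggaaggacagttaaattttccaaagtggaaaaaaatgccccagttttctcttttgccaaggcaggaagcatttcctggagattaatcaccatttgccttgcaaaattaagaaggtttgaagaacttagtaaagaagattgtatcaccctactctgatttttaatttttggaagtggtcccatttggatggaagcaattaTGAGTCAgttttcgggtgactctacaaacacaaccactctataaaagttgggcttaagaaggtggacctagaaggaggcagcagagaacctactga
Mmp10: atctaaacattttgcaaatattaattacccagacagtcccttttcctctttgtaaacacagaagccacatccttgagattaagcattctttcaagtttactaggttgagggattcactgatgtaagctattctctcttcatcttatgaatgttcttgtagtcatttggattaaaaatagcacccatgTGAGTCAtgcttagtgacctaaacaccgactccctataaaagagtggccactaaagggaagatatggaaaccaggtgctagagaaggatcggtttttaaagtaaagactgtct
Mmp14: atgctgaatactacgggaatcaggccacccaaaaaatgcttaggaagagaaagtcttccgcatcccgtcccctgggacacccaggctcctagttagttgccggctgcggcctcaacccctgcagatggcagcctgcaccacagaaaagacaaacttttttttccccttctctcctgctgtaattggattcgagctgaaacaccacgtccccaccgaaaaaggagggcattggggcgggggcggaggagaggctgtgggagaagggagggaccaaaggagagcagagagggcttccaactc

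Each of the windows of Mmp13, Mmp3 and Mmp10 held 1 match to TGANTCA, which began 35 bases before the gene start in Mmp13, 46 bases before it in Mmp3 and 63 bases before it in Mmp10. Each also held 1 match to TATAAA, the core sequence of a TATA box, which did not overlap the first motif. It began 16 bases before the gene start in Mmp13, 7 in Mmp3 and 29 in Mmp10. Whether these matches act as a TATA box was not tested. Mmp12 has 2 windows in the table, and the window of the downstream start held 1 match to each motif and that of the upstream start none. In the downstream window TATAAA began 4 bases after the start. Neither motif was found in the windows of Mmp11, Mmp14 and Mmp15. Over all 32851 windows of this length in the table, 7.81% held TGANTCA and 13.6% held TATAAA on either strand.

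Transcripts of Mmp3, Mmp9, Mmp11, Mmp12, Mmp13, Mmp14 and Mmp19 were lower in shTlr7 spheroids, that of Mmp15 was higher, and no difference was called for Mmp10. Of the 10 genes, 9 passed the filter on low counts, and of these 7 were lower and 1 was higher in shTlr7 (edgeR quasi-likelihood test, Benjamini-Hochberg adjusted p under 0.05 over 13393 genes). Over all tested genes 26.8% were called lower, 29.3% higher and 56.1% in either direction. The median log2 fold change of the 9 tested members was -1.17, against 0.01 over all tested genes and -0.23 over the 5 other Mmp genes tested. The members were chosen with earlier results of these data known, so these contrasts are descriptive. All 7 lower genes but Mmp11 differed by at least 2-fold, a size that 4.23% of tested genes had among those called lower. For these 8 genes the CPM ranges of the groups were apart, as for 49.8% of all tested genes. Of all tested genes 23.8% had every shTlr7 library below every shCtrl library, as 7 members did, and 26% had every one above, as Mmp15 did. In bulk RNA, fewer cells that express a gene and less RNA per cell cannot be told apart.

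**Figure D1:**
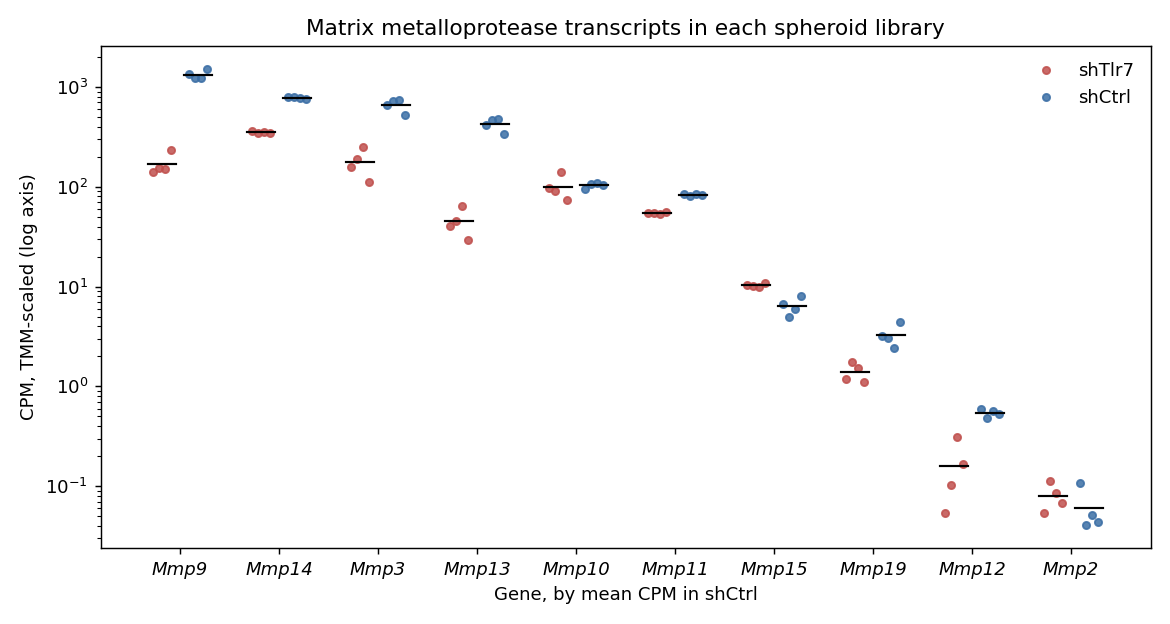
CPM (TMM-scaled, log axis) of each of the 10 metalloprotease genes in each library, with the 4 shTlr7 libraries left of the 4 shCtrl libraries and a line at each group's mean. The groups are apart for Mmp9, Mmp14, Mmp3, Mmp13, Mmp11, Mmp15, Mmp19 and Mmp12, and overlap for Mmp10 and Mmp2.

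The collagenase and the gelatinase fell most. Mmp13, which encodes collagenase 3, a protease of fibrillar collagen, had 40.7, 45.6, 64.8 and 29.0 CPM in shTlr7 replicates 1 to 4, against 415, 471, 477 and 334 CPM in shCtrl replicates 1 to 4. The highest shTlr7 library was thus far below the lowest shCtrl library. The fall was 9.38-fold, a log2 fold change of -3.23 ± 0.27 (SE; edgeR adjusted p = 6.43e-05), and 0.329% of all tested genes had a lower log2 fold change. Mmp9, the gene of gelatinase B (chr2:164940326-164955850, + strand), had 140.2, 156, 152 and 231 CPM in shTlr7 replicates 1 to 4, against 1343, 1241, 1228 and 1523 CPM in shCtrl replicates 1 to 4. In both groups the library numbered 4 was the highest, and the groups did not overlap. Mmp9 fell 7.85-fold (log2 fold change -2.97 ± 0.18, edgeR adjusted p = 4.88e-06). Mmp2, the gene of the other gelatinase (chr8:92827290-92853421, + strand), was close to absent, with 1, 11, 3 and 2 counts in shTlr7 replicates 1 to 4 and 2, 2, 1 and 1 counts in shCtrl replicates 1 to 4. It did not pass the filter, and the pooled ratio of shTlr7 to shCtrl was 1.73 with an exact 95% interval from 0.651 to 5.36 (counting error only).

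The stromelysin genes, neighbours on chromosome 9, differed from each other. Mmp3, the gene of stromelysin 1, had 157, 192, 248 and 112 CPM in shTlr7 replicates 1 to 4, against 664, 726, 746 and 519.8 CPM in shCtrl replicates 1 to 4. The groups were apart, and in both the library numbered 3 was the highest and that numbered 4 the lowest. Mmp3 fell 3.74-fold (log2 fold change -1.90 ± 0.26, edgeR adjusted p = 8.93e-04). Mmp10, the gene of stromelysin 2, had 96.6, 90.2, 140.7 and 74.1 CPM in shTlr7 replicates 1 to 4, against 96.0, 107, 108 and 105 CPM in shCtrl replicates 1 to 4. The shTlr7 libraries lay on both sides of the shCtrl libraries. Its log2 fold change was -0.05 ± 0.19 (edgeR adjusted p = 0.833), and it became -0.26 (edgeR adjusted p = 0.0188) without shTlr7 replicate 3, the library with the highest value. The transcripts of Mmp3 and Mmp10 share sequence, with 8.39% of the 50-base words of Mmp3 found in transcripts of other genes, Mmp10 among them, so a part of their reads may not have been assigned to one of them.

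Mmp12, which encodes the macrophage elastase, was at the limit of detection. It had 1, 10, 11 and 5 counts in shTlr7 replicates 1 to 4, against 11, 24, 11 and 12 counts in shCtrl replicates 1 to 4, that is 0.0536, 0.103, 0.314 and 0.168 CPM against 0.593, 0.486, 0.561 and 0.530 CPM. All shTlr7 libraries were below all shCtrl libraries in CPM, although libraries differed in depth. Mmp12 fell by 1.77 ± 0.37 on the log2 scale (SE; edgeR adjusted p = 0.00120), and the pooled ratio was 0.284 (exact 95% interval 0.173 to 0.456, counting error only). Of the macrophage markers, Csf1r was lower in shTlr7 (log2 fold change -2.17, edgeR adjusted p = 4.39e-06; 15.1% of its exon bases overlap Hmgxb3 on the opposite strand) and so was Mrc1 (-1.01, edgeR adjusted p = 0.00578), while Cd68 was higher (0.72, edgeR adjusted p = 1.41e-04). Itgam, Fcgr1 and Ptprc were under the filter. Itgam, with 68.7% of its exon bases shared with Gm49368, had 0.189 ± 0.0719 CPM in shTlr7 and 0.00506 ± 0.0101 CPM in shCtrl (SD, n = 4 each). Fcgr1 had 0.270 ± 0.150 CPM in shTlr7 and 0.0815 ± 0.0731 CPM in shCtrl, and the groups overlapped. Ptprc had 0.179 ± 0.0540 CPM in shTlr7 and 0.135 ± 0.0729 CPM in shCtrl. Without the filter their log2 fold changes were 4.08, 1.68 and 0.36 (edgeR adjusted p = 2.20e-05, 0.0108 and 0.603). The part of such cells in the level of Mmp12 was not tested.

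Genes of the membrane-type enzymes went opposite ways. Mmp14, which encodes MT1-MMP, an activator of proMMP2 and a collagenase at the cell surface, had 366, 349, 352 and 349 CPM in shTlr7 replicates 1 to 4, against 795, 791, 781 and 759.7 CPM in shCtrl replicates 1 to 4. Libraries within a group lay close together, and the coefficient of variation was 2.27% in shTlr7 and 2.01% in shCtrl. The fall of 2.21-fold (log2 fold change -1.14 ± 0.04) had the lowest adjusted p of the family (edgeR adjusted p = 5.63e-11). Mmp15, which encodes MT2-MMP (chr8:95352296-95374293, + strand), had 10.4, 10.3, 9.84 and 10.7 CPM in shTlr7 replicates 1 to 4, against 6.63, 4.94, 5.96 and 7.998 CPM in shCtrl replicates 1 to 4. Every shTlr7 library was above every shCtrl library. Mmp15 rose 1.64-fold (log2 fold change 0.72 ± 0.12, edgeR adjusted p = 2.34e-04) at a level far under that of Mmp14.

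Mmp11 and Mmp19 fell as well. Mmp11, which encodes stromelysin 3, an enzyme that furin activates inside the cell (chr10:75923221-75932502, - strand), had 55.04, 54.6, 53.6 and 56.0 CPM in shTlr7 replicates 1 to 4, against 84.6, 80.3, 83.8 and 82.7 CPM in shCtrl replicates 1 to 4. The fall was small and regular, 1.51-fold (log2 fold change -0.60 ± 0.04, edgeR adjusted p = 5.70e-08), and neither Mmp11 nor Mmp15 passed a test against a fold of 1.5 (glmTreat). Mmp19, a basement membrane protease (chr10:128790910-128800827, + strand), had 1.18, 1.75, 1.51 and 1.11 CPM in shTlr7 replicates 1 to 4, against 3.24, 3.06, 2.45 and 4.42 CPM in shCtrl replicates 1 to 4. It fell 2.25-fold (log2 fold change -1.17 ± 0.20, edgeR adjusted p = 2.13e-04). Of its exon bases, 28.3% overlap exons of Gm47093 or Tmem198b on the opposite strand, and 25.4% of its 50-base words occur in their transcripts. Without strand, reads of these genes cannot be told apart from its own. For Mmp11 that share was 5.58%, with Chchd10, and for Mmp12 2.17%, with Mmp1b.

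**Figure D2:**
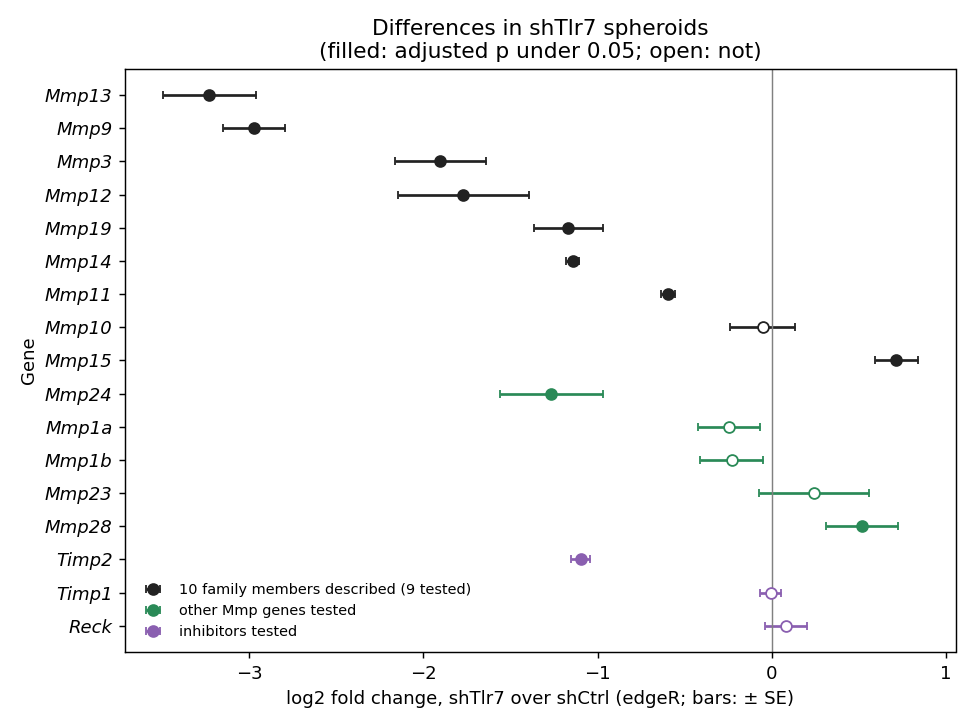
Log2 fold change of shTlr7 over shCtrl (points; bars are ± SE from edgeR) for the 9 tested members, the 5 other tested Mmp genes and the 3 tested inhibitors, with filled points for an adjusted p under 0.05. Mmp13 at -3.23 and Mmp9 at -2.97 lie farthest to the left, Mmp10 at -0.05 is near 0, and Mmp15 at 0.72 lies to the right.

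The order of the genes by level changed between the groups. Levels were compared between genes as CPM per kb of merged exon length in the GENCODE M21 annotation of GRCm38. Merged exons can be longer than any single transcript. For Mmp14 they held 5960 bases, against 3238 in its longest transcript, while both lengths were 1801 for Mmp3 and 2673 for Mmp13. Per length of the longest transcript, the mean of Mmp14 would lie above that of Mmp3 in shTlr7 and that of Mmp13 in shCtrl. The order below holds for merged exon length only. In shTlr7 Mmp3 had the highest mean, with 98.4 ± 31.9 CPM per kb (SD, n = 4), followed by Mmp14 with 59.4 ± 1.35, Mmp10 with 58.3 ± 16.5 and Mmp9 with 48.0 ± 11.7 CPM per kb. The range of Mmp3, from 62.1 to 138 CPM per kb, overlapped those of Mmp10 and Mmp9, and in replicate 4 Mmp9 with 65.3 CPM per kb was above Mmp3. The ranges of Mmp14 and Mmp10 overlapped, as did those of Mmp10 and Mmp9. Mmp11 with 19.7 ± 0.352 and Mmp13 with 16.8 ± 5.57 CPM per kb came next and also overlapped. In shCtrl, Mmp9 with 377 ± 38.4 and Mmp3 with 369 ± 56.7 CPM per kb were the highest and overlapped, followed by Mmp13 with 159 ± 24.8 and Mmp14 with 131 ± 2.63 CPM per kb, which overlapped too. There, Mmp10 with 60.4 ± 3.20 and Mmp11 with 29.8 ± 0.667 CPM per kb each stood clear of its neighbours in the order.

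The remaining genes were low in both groups. Mmp15 had 1.91 ± 0.0693 CPM per kb in shTlr7 and 1.18 ± 0.237 CPM per kb in shCtrl (SD, n = 4 each), and Mmp19 had 0.393 ± 0.0852 CPM per kb in shTlr7 and 0.931 ± 0.234 CPM per kb in shCtrl. Their ranges were apart in shTlr7 and overlapped in shCtrl. Mmp12 and Mmp2 were below 0.1 CPM per kb in both groups. Set among all tested genes with an exon length, the mean level of Mmp9 was above 92.1% of genes in shTlr7 and above 99.5% in shCtrl. Mmp13 was above 72.1% of genes in shTlr7 and above 98.3% in shCtrl, whereas Mmp10 was above 94.0% in shTlr7 and 93.9% in shCtrl.

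The summed level of the 10 genes was 281, 301, 367 and 262 CPM per kb in shTlr7 replicates 1 to 4, against 1125, 1155, 1166 and 1065 CPM per kb in shCtrl replicates 1 to 4. Mmp9 made up 39.9% of the difference in this sum, Mmp3 32.8%, Mmp13 17.2% and Mmp14 8.70%. Of the summed mean level, Mmp9 held 15.8% in shTlr7 and 33.4% in shCtrl, and Mmp13 held 5.56% in shTlr7 and 14.1% in shCtrl. The share of Mmp10 was 19.2% in shTlr7 and 5.36% in shCtrl, and that of Mmp14 was 19.6% in shTlr7 and 11.6% in shCtrl. Mmp3 kept a like share, 32.5% in shTlr7 and 32.7% in shCtrl. These sums and shares also rest on merged exon length, and the part of Mmp14 would be larger per length of its longest transcript.

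**Figure D3:**
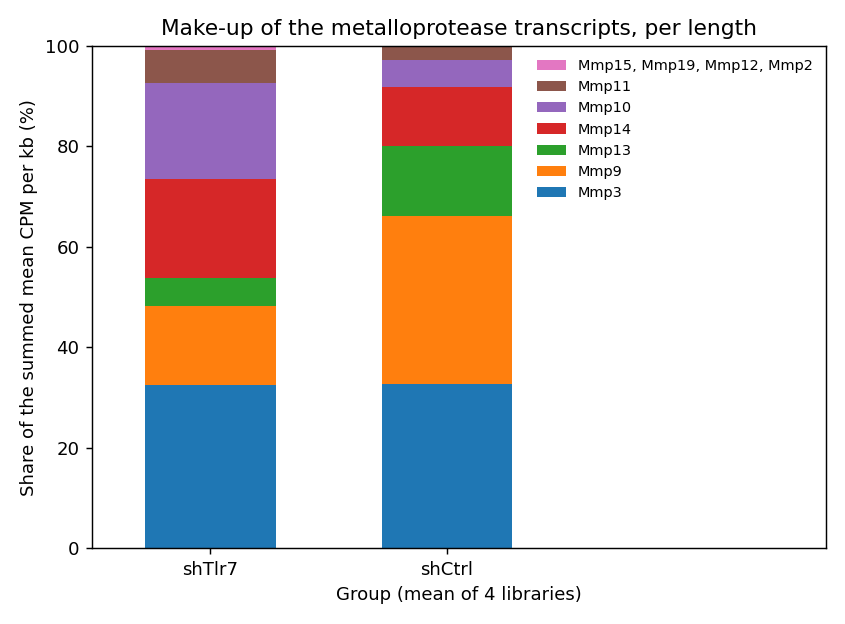
Share of each gene in the summed mean CPM per kb of the 10 metalloprotease genes (stacked bars, %), for shTlr7 on the left and shCtrl on the right, 4 libraries each. The shares of Mmp9 and Mmp13 are smaller in shTlr7, at 15.8% and 5.56%, and those of Mmp10, Mmp14 and Mmp11 larger.

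Mmp13, Mmp3 and Mmp10 deviated in a shared way in shTlr7 replicates 3 and 4, described here with no test. In shTlr7, Mmp13, Mmp3 and Mmp10 deviated from the group mean of log2 CPM by 0.58, 0.54 and 0.53 in replicate 3, and by -0.57, -0.60 and -0.40 in replicate 4. Mmp9 went the other way in these libraries, with deviations of -0.13 in replicate 3 and 0.47 in replicate 4. Mmp12, with few counts, had deviations of 0.93 and 0.20 there. Mmp10 did not follow in shTlr7 replicate 2, at -0.11 against 0.08 for Mmp13 and 0.18 for Mmp3. In shCtrl replicate 4, Mmp13 and Mmp3 had deviations of -0.33 and -0.34, Mmp10 of 0.02 and Mmp9 of 0.20. Mmp14 and Mmp11 deviated by at most 0.05 in any library.

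**Figure D4:**
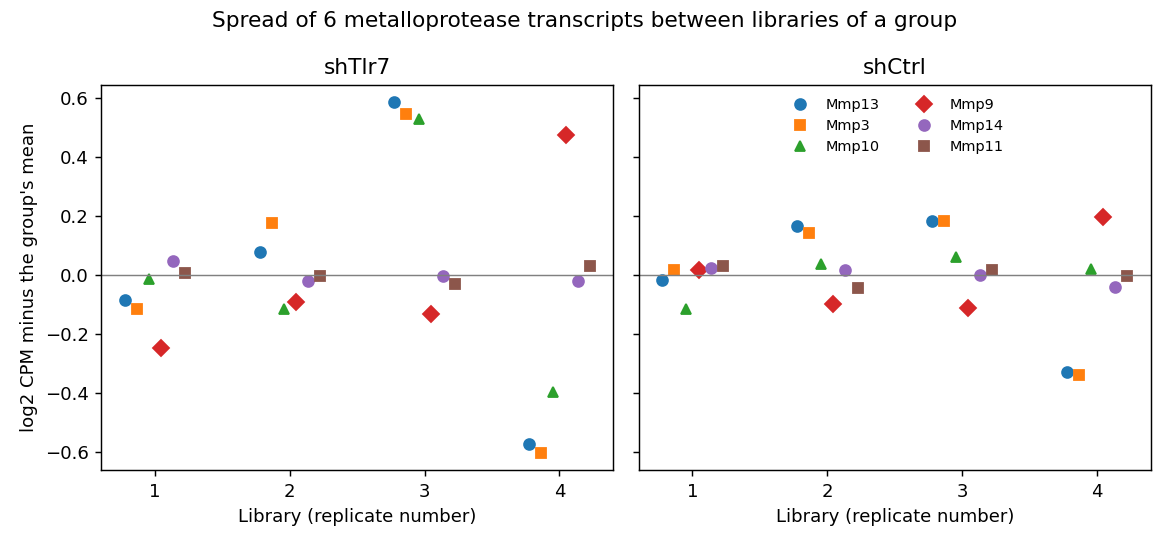
Deviation of log2 CPM from the group's mean for 6 metalloprotease genes in each library (x axis: replicate number), with shTlr7 on the left and shCtrl on the right. In replicate 4 of both groups Mmp13 and Mmp3 lie below 0 and Mmp9 above it, while Mmp14 and Mmp11 stay near 0 in all libraries.

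Ratios of counts within a library, which do not depend on scaling, were compared for 5 pairs of genes chosen after their values were seen. The p-values, the adjustment over 5 pairs and the intervals do not cover that choice, so they only describe the separation of the groups. The log2 ratio of Mmp13 to Mmp3 was -1.98 ± 0.07 in shTlr7 and -0.65 ± 0.02 in shCtrl (SD, n = 4 each), so that the pair kept a near constant ratio within each group. Between the groups the ratio differed by -1.33 (95% interval -1.45 to -1.26, two-sided exact permutation p = 0.0286, adjusted over the 5 pairs 0.0357). The ratio of Mmp13 to Mmp10 was -1.18 ± 0.16 in shTlr7 and 2.02 ± 0.23 in shCtrl, a difference of -3.19 (95% interval -3.50 to -2.66, exact permutation p = 0.0286, adjusted 0.0357), so Mmp13 was the less abundant of the pair in counts in shTlr7 and the more abundant in shCtrl. The ratio of Mmp3 to Mmp10 differed by -1.86 (95% interval -2.20 to -1.22, exact permutation p = 0.0286, adjusted 0.0357). With 4 libraries in each group, 0.0286 is the smallest p that the permutations can give.

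Mmp9 and Mmp14 were also set against the transcripts of inhibitors. Timp1 encodes an inhibitor that binds proMMP9, and Timp2 one that takes part with MMP14 in the activation of proMMP2. The log2 ratio of Mmp9 to Timp1 was 1.76 ± 0.23 in shTlr7 and 4.75 ± 0.19 in shCtrl, a difference of -2.98 (95% interval -3.41 to -2.46, exact permutation p = 0.0286, adjusted 0.0357). The log2 ratio of Mmp14 to Timp2 was -0.79 ± 0.06 in shTlr7 and -0.74 ± 0.07 in shCtrl. That difference of -0.05 did not pass the test (95% interval -0.19 to 0.09, exact permutation p = 0.371, adjusted 0.371).

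**Figure D5:**
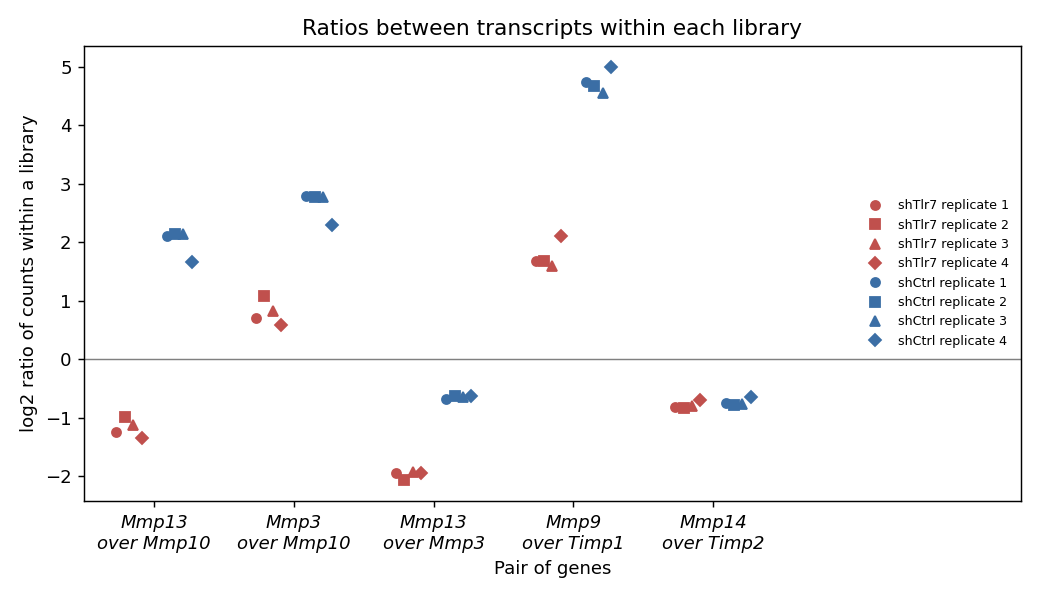
Log2 ratio of the counts of a pair of genes in each library (symbols: replicate number), with shTlr7 left of shCtrl for each pair. The groups are apart for the first 4 pairs, with differences from -3.19 to -1.33, and overlap for Mmp14 over Timp2.

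Among the 13 other Mmp genes, 5 passed the filter, and 1 was lower and 1 higher (median log2 fold change -0.23). The shares over all tested genes were 26.8% lower and 29.3% higher. Mmp24, the gene of the membrane-type enzyme MT5-MMP, had 1.95 ± 0.903 CPM in shTlr7 and 4.40 ± 1.03 CPM in shCtrl (SD, n = 4 each), a log2 fold change of -1.27 ± 0.30 (edgeR adjusted p = 0.00427). Mmp28, the gene of epilysin, had 1.77 ± 0.280 CPM in shTlr7 and 1.30 ± 0.313 CPM in shCtrl, with a log2 fold change of 0.52 (edgeR adjusted p = 0.0465). The groups overlapped for both genes, and 13.6% of the exon bases of Mmp24 and 12.0% of those of Mmp28 lie opposite exons of other genes. The call on Mmp28 was lost with DESeq2 (adjusted p = 0.0944) and without shCtrl replicate 2 (edgeR adjusted p = 0.228), shTlr7 replicate 1 (0.0961) or shTlr7 replicate 2 (0.160). Neither gene was called against a fold of 1.5. In the chromosome 9 cluster, Mmp1a and Mmp1b had log2 fold changes of -0.24 and -0.23 and were not called (edgeR adjusted p = 0.265 and 0.289), and Mmp7, Mmp8, Mmp20 and Mmp27 had at most 1 count over all libraries.

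Of 7 inhibitors, 3 passed the filter, and 1 was lower and 0 higher (edgeR, with 0 higher at an unadjusted p under 0.05 and 0 called higher by DESeq2 and limma-voom). Among all tested genes 26.8% were lower and 29.3% higher. Timp2 had 644, 620, 614 and 564 CPM in shTlr7 replicates 1 to 4, against 1335, 1363, 1336 and 1183 CPM in shCtrl replicates 1 to 4. It fell by 1.10 ± 0.05 on the log2 scale (edgeR adjusted p = 3.32e-09). Timp1 had 49.2 ± 4.09 CPM in shTlr7 and 49.5 ± 2.05 CPM in shCtrl (log2 fold change -0.01, edgeR adjusted p = 0.938), and Reck, which encodes a membrane-anchored inhibitor, had 7.20 ± 0.705 CPM in shTlr7 and 6.85 ± 1.11 CPM in shCtrl (0.08, edgeR adjusted p = 0.578). Timp3 and Timp4 had 3 and 2 counts over all libraries.

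Transcripts of activators, docking partners and inducers of MMPs were mostly lower. Of 16 genes in that list, 14 passed the filter, and 10 fell and 2 rose, beside 26.8% lower and 29.3% higher over all tested genes. The list's median was -0.31 on the log2 scale. Plau, the gene of urokinase, which generates the MMP activator plasmin, had a log2 fold change of -2.03 ± 0.07, the tissue-type activator gene Plat of -1.11, and the integrin gene Itgb3 of -1.22. Cd44, which docks MMP9 at the cell surface, was at -0.58, and Furin, a convertase that activates MMP11 and MMP14, at -0.30. The 2 higher genes were the convertase genes Pcsk7 at 0.60 and Pcsk6 at 0.41. Against a fold of 1.5, 3 of the list were lower and 0 higher (glmTreat, with 5 and 0 at an unadjusted p under 0.05), among them neither Furin nor Cd44. In that setting 666 genes were lower and 472 higher of 13393 tested. Lcn2, which encodes a partner of MMP9, was at -0.94 (edgeR adjusted p = 0.0163, and 0.0874 with the replicate number as a block). Plg, the gene of plasminogen, had 2 counts over all libraries.

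Transcription factor genes known to act on MMP promoters went both ways. Of 16, 14 passed the filter, and 4 were lower, 2 higher and 8 not called (median log2 fold change -0.23), beside 26.8% lower and 29.3% higher over all tested genes. Runx2, known as an activator of Mmp13, had 49.0 ± 2.93 CPM in shTlr7 and 112 ± 9.76 CPM in shCtrl, a log2 fold change of -1.19 ± 0.06 (edgeR adjusted p = 6.26e-09). Ets1 was at -0.90, the AP-1 gene Fosl2 at -0.47 and the NF-kB gene Nfkb1 at -0.34, all called. The higher genes were Etv5 at 0.17 and Rela at 0.18. The AP-1 genes Fos (-1.29), Fosb (-1.99), Junb (-0.39) and Jun (0.11) were not called (edgeR adjusted p = 0.140, 0.0655, 0.0838 and 0.800). Fosb was called by DESeq2 (adjusted p = 0.00946) and limma-voom (adjusted p = 0.0342), and Junb by limma-voom (adjusted p = 0.0396). With the replicate number as a block, 7 of the list were lower and 2 higher, beside 4005 lower and 4334 higher genes of 13393. Fos (edgeR adjusted p = 0.0384), Fosb (0.0385) and Junb (3.99e-06) were then called. In shCtrl replicate 4, Fos reached 323 CPM, against 35.0 to 93.0 CPM in shTlr7 and 64.8 to 90.7 CPM in the other shCtrl libraries. Without both libraries numbered 4, 7 of the list were lower and 4 higher, with Fos at -0.82 (edgeR adjusted p = 0.0312), Fosb at -1.23 (0.0297), Junb at -0.36 (0.00574) and Jun at 0.59 (0.0387). In the same libraries 7 metalloprotease members were lower and 1 higher, beside the 4046 lower and 4213 higher genes of 13469. Jund and Ets2 have a further copy in the table and 2 and 1 counts, so they were not read.

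Transcripts of matrix substrates were also mostly lower, beside 26.8% lower and 29.3% higher over all tested genes. Of 19, 13 passed the filter, 10 were lower and 0 higher (edgeR; 0 higher at an unadjusted p under 0.05, and 0 called higher by DESeq2 and limma-voom), with a median log2 fold change of -1.01. Fibronectin (Fn1), a target of MMP3 and MMP14, had 1613 ± 201 CPM in shTlr7 and 4436 ± 558 CPM in shCtrl (SD, n = 4 each), a log2 fold change of -1.46. Osteopontin (Spp1), cut by MMP3, was at -1.07, and the basement membrane proteoglycan Hspg2 at -1.01. Among fibrillar collagen genes, Col5a1 had 117 ± 8.75 CPM in shTlr7 and 199 ± 4.90 CPM in shCtrl (log2 fold change -0.76, edgeR adjusted p = 4.21e-08). Col1a1 had 1.64 ± 0.359 CPM in shTlr7 and 2.22 ± 0.701 CPM in shCtrl. Col1a2 had 12 counts over all libraries and Col3a1 had 0.

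The genes whose profile over the 8 libraries was most like that of a member were found by the root mean square (RMS) difference of log2 CPM centred on each gene's mean, among 10523 genes. This profile includes the difference between the groups, so genes with a like log2 fold change come out close. The log2 fold changes of the 3 genes nearest Mmp13 were -2.96, -3.33 and -3.15. Those of the 3 nearest Mmp14 were -1.10, -1.12 and -1.12. The genes nearest Mmp13 were Il1a (RMS difference 0.222), Spo11 (0.225) and Sorbs2 (0.265). For Mmp3 they were S100a4 (0.214), Samsn1 (0.221) and Cd14 (0.222), and for Mmp9 they were Phyhd1 (0.172), Col6a2 (0.210) and Npr3 (0.233). The steadier profiles of Mmp14 and Mmp11 were met more closely, that of Mmp14 by Tcf4 (0.0302), Efnb1 (0.0333) and Ppp1r12b (0.0414) and that of Mmp11 by Atxn7l3 (0.0277), Sipa1l1 (0.0298) and Atp2c2 (0.0322). Mmp10 was closest to C77080 (0.136), Slc7a11 (0.139) and Map3k8 (0.152), Mmp15 to TrnH (0.0858), Mxd4 (0.0910) and H2-T23 (0.0985), and Mmp19 to Pcdhb22 (0.228), Masp1 (0.230) and Nfkbiz (0.243). Mmp12, at its few counts, was met least closely, by Phex (0.342), Zhx2 (0.356) and Tnni2 (0.371).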

How the data were processed

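RNA of 8 spheroid libraries was sequenced. For each gene and library the authors deposited a raw count of reads. STAR 2.7.5, DESeq2 1.32.0 and the build GRCm38 are named, with no roles, per the submitters' processing notes. Counting program, strand setting and annotation: not given in the sources used here.

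Groups came from the sample titles. Tests used edgeR 4.0.16 under R 4.3.3 (filterByExpr on the groups, TMM scaling, robust quasi-likelihood test of shTlr7 over shCtrl with group as the only term, Benjamini-Hochberg adjustment over 13393 genes, threshold 0.05). The SE was obtained as log2 fold change over the root of the F statistic. CPM used TMM-scaled library sizes, and CPM per kb the merged exon length of each gene in GENCODE M21. Library pairs of a group differed by more than sampling noise (chi-square per degree of freedom 2.19 to 22.6). The test was checked on simulated counts of 13393 genes, with 50 genes changed by each fold. It recovered 44% of changes of 1.25-fold, 78% of 1.5-fold, 98% of 2-fold and 100% of 3-fold. Of its 170 calls 5.88% were false. In the data 56.1% of genes were called, so the simulation does not check the scaling with that many changes. Promoter windows came from RefSeq's GRCm38.p6 table, which matched 7 of 10 members.

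All 10 members are named, with any gene of 5 lists of related genes and of the cell type markers, and the 3 genes most like a member by RMS difference (average log2 CPM of at least 1, with Gm, Rik, LOC and copy-suffix names left out). Members and lists were chosen with earlier results of these data known. Alternatives were RLE, upper-quartile and library-size scaling, DESeq2 1.42.0, limma-voom (limma 3.58.1), other filters and thresholds, the replicate number as a block, leaving out libraries, and thinning to the smallest library. Intervals on pooled counts are exact binomial intervals and cover counting error only. Intervals on ratios come from inverting the exact permutation test. The values of 1 gene of the matrix substrate list are not reported here.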

Additional observations from a re-analysis of the deposited data

Results flagged for a closer look

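In 118 groups of 4 libraries, over 59 genes, 16 held a library far from the other 3 in CPM; chance gives about 1 in 20. Of the members this concerned Mmp2, at 0.108 CPM in shCtrl replicate 1, a value that rests on 2 counts. Most of the others were in shCtrl replicate 4. That library was high in the transcription factor genes Fos (323 CPM), Fosb (242 CPM), Jun (491 CPM), Junb (541 CPM), Runx2 (126 CPM) and Elf3 (50.3 CPM). It was high in Lcn2 (893 CPM), Itgb3 (106 CPM), Fn1 (5270 CPM) and Spp1 (5755 CPM) as well. It was low in Timp2 (1183 CPM), Plaur (95.8 CPM) and Col18a1 (781 CPM). Col18a1 was also low in shTlr7 replicate 4 (629 CPM), and Rela was high in shCtrl replicate 1 (179.6 CPM).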

How the results depend on the processing

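The falls of Mmp3, Mmp9, Mmp13, Mmp14 and Mmp19 kept their direction and call in all 20 alternatives, and that of Mmp12 in the 18 that tested it; it was not tested with thinned libraries or with at least 1 CPM in 4 libraries. Mmp11 and Mmp15 lost their call against a fold of 1.5 (glmTreat; adjusted p = 1 and 0.411) and kept it in the other 19. That setting left 1138 genes called, 666 lower and 472 higher, against 3590 lower and 3927 higher in the fit reported, with 6 members lower and 0 higher (0 higher at an unadjusted p under 0.05). Leaving out 1 library gave 7 to 8 lower members and 1 higher member, and 6705 to 7862 called genes. The log2 fold change of Mmp10 lay between -0.26 and 0.0679 when 1 library was left out; its sign turned without shTlr7 replicate 2 or 4, with library size only (0.0505) and without both libraries numbered 4 (0.0636, chosen after seeing the data), and the cause was not tested. That of Mmp2, 0.73 without the filter, became -0.10 with thinned libraries, which leave fewer counts. With library size only, the median over all tested genes was 0.11 on the log2 scale, against 0.01 with TMM, and the calls were 2491 lower and 5513 higher. Other scalings and tools changed no member's call.

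The replicate number as a block gave 7 lower members, 1 higher member and 8339 called genes. With the block the SE of the log2 fold change was 0.13 for Mmp13, 0.12 for Mmp3 and 0.08 for Mmp9. In the fit reported these were 0.27, 0.26 and 0.18. The SE of Mmp12 and Mmp19 changed little, at 0.37 and 0.19 with the block against 0.37 and 0.20. Deviations of same-numbered libraries correlated at -0.0068 to 0.380, above 0.1 in 3 of 4 pairs, and those of other pairs at -0.314 to 0.166. Since not every pair was above 0.1 and the labels name no shared batch, the numbers were not taken to pair samples; 4 of 8 libraries correlated best with their own number. At this depth a change of Mmp2 under several fold could not be resolved.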
